A study of Caenorhabditis elegans with 2 samples.

Results

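The genes described here are the 31 protein-coding genes of Caenorhabditis elegans whose names begin with rps-, out of 19973 protein-coding genes on the 6 nuclear chromosomes. The rule takes them by name, without the mitochondrial mrps- genes, for a group proposed with earlier results of these data known. They encode proteins of the small subunit of the cytosolic ribosome. For each gene the nearest summit, the single base at which a peak is highest, was read in every peak list with its signal, its rank by signal and its signed distance to the annotated 5' end, negative when upstream. The replicate values printed for a gene are those of the matched call, within 100 bp of its summit in the set of reproducible peaks. At some genes another call lay nearer to the 5' end.

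The small subunit holds the decoding centre, where the codons of a messenger RNA are read against transfer RNAs. Its proteins are needed together and in equal amounts, and in growing animals their genes are among the most strongly transcribed by RNA polymerase II. In C. elegans many transcripts, ribosomal protein mRNAs among them, receive a spliced leader by trans-splicing, so an annotated 5' end can be a splice acceptor that lies downstream of the site where transcription begins.

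The study mapped the genomic positions recovered with LIN-13, a protein with zinc fingers that belongs to the synMuv class B genes, which act against vulval and germline programs in other cells, by chromatin immunoprecipitation and sequencing of whole L1 larvae. Both samples are biological replicates of 1 group, from strain OP49, which carries the unc119(ed3) mutation and the transgene wgIs49, holding lin-13 with TY1, EGFP and FLAG tags together with unc119. Animals of both sexes were pooled, fragments were sized between 150 and 350 bp, and the antibody label names lin-13 itself. No untagged strain and no control sample was analysed here, and no source used here gives the read depth, so the lists show what was called against a control but not what a strain without the tag would give.

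Sequence at the summits is shown first for members that share short words. The windows reach 60 bp to each side of the summit in ce11, are read 5' to 3' on the strand of the gene and come from the RefSeq copy of WBcel235. The first 4 windows are those of rps-0, rps-3, whose protein lines the mRNA entry channel, rps-22 and rps-30. They lie at chrIII:4754292-4754412 (minus strand) for rps-0, chrIII:6206387-6206507 (plus strand) for rps-3, chrIII:1950374-1950494 (plus strand) for rps-22 and chrV:7776265-7776385 (plus strand) for rps-30. They are shown because all 4 hold GAGTATTC (word D), in capitals, and 3 of them also hold GCAGCCAA or its reverse complement TTGGCTGC (word F). The remaining capitals, in rps-3 and rps-30, mark AAAGGCGC (word C) and GCGAGACC, the reverse complement of GGTCTCGC (word A).
rps-0: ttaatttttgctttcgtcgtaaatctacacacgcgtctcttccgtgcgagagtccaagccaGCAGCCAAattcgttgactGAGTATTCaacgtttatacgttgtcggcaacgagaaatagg
rps-3: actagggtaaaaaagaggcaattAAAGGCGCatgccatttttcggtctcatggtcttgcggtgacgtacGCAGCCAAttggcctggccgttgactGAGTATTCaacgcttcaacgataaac
rps-22: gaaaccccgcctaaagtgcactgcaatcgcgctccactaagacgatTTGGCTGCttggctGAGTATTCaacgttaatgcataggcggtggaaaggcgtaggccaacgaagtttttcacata
rps-30: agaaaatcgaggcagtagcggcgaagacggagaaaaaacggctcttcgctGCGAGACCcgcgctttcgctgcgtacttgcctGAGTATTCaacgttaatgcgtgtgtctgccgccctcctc

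In these windows word D stood within the longer run CTGAGTATTCAACG. This 14-letter run was read from rps- windows with word D. The 5 of 27 rps- windows that hold it are all those with word D, so that count describes the choice. The run was also in 4 of 38 windows of genes for the large subunit (rpl-). The window of rps-30 stands in both sets, because its summit is shared with rpl-39. The run was in 10 of 1346 windows at all promoter peaks (0.743%), which include the rps- and rpl- windows.

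The next 5 windows lie at chrIV:11602253-11602373 (plus strand) for rps-11, chrIV:5947886-5948006 (minus strand) for rps-25, chrIV:7084879-7084999 (minus strand) for rps-4, chrIV:7314055-7314175 (minus strand) for rps-8 and chrIII:7179770-7179890 (minus strand) for rps-14. In rps-11 and rps-25 the capitals mark words C and A in that order, in rps-4 and rps-8 they mark word A followed by TTTAGGCC (word B), and in rps-14 word F stands once on each strand.
rps-11: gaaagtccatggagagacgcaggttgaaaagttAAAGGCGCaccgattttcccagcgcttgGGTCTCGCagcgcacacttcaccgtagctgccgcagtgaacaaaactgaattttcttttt
rps-25: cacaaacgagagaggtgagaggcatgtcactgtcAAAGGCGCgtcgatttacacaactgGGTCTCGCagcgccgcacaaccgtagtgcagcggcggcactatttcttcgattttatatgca
rps-4: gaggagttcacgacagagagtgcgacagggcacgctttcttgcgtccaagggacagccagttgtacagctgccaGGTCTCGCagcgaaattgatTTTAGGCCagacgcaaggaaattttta
rps-8: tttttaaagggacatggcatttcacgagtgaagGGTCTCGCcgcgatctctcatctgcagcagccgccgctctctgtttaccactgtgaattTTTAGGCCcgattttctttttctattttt
rps-14: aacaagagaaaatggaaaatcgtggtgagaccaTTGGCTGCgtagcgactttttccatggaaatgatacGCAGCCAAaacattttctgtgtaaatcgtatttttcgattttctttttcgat

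The windows of rps-12 and rps-1 are shown for contrast, because they belong to strong peaks and hold none of the 6 words A to F that are listed further on. They lie at chrIII:5679076-5679196 (plus strand) for rps-12 and chrIII:4475596-4475716 (plus strand) for rps-1.
rps-12: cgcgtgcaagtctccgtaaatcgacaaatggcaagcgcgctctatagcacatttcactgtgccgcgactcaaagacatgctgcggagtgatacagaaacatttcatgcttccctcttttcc
rps-1: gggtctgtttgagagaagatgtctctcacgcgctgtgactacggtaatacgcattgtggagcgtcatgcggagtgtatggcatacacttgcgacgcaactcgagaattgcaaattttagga

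A reproducible LIN-13 peak stood near most of these genes. In the peak set that passed the irreproducible discovery rate (IDR), a measure of how well replicate rankings match, with 2333 peaks, 27 of 31 rps- genes (87.1%, exact 95% binomial interval 70.2% to 96.4%) had a summit within 500 bp of a 5' end, and 38 of 47 rpl- genes (80.9%) did. Over all 19973 protein-coding genes the share was 8.62%. The interval covers counting error only and treats genes as independent, which neighbours that share a peak are not. The 27 genes had 27 different summits, and all of them lay between genes and upstream of the 5' end. An upstream summit was also usual among all 1721 genes with a peak, at 1598 of them (92.9%). For the place between genes no share of other peaks is given here.

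The count rests on the width of the window and on letting a summit count for several genes. Within 250 bp only 6 of 31 rps- genes had a summit, against 5.65% of all genes. With each summit given only to the gene of its nearest 5' end the count was 15 of 31, against 6.57% of all genes. Within 1000 bp it was 29 of 31, against 10.9% of all genes.

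Each replicate alone gave a similar picture. Among the 2333 strongest calls of replicate 1, 24 of 31 rps- genes had a summit within 500 bp, against 8.34% of all genes. In replicate 2 the count was 27 of 31, against 8.43% of all genes. Of the 30000 calls made on both replicates pooled, which include background by design, at least 1 lay within 500 bp of 29 of 31 rps- genes, where 39.2% of all genes had one.

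Around the window's edge, rps-29 was just inside with a summit at -491 bp, and rps-18 just outside with a summit at -530 bp. The peaks were spread over the chromosomes that carry the genes. All 8 members on chromosome I, the 1 on II and all 9 on III had a peak. So did 8 of 10 on IV and 1 of 3 on V, and no member lies on X. Over all chromosomes together 8.62% of protein-coding genes had a peak. No share of all genes is given here for each chromosome, so no difference between chromosomes is read from these counts.

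**Figure D1:**
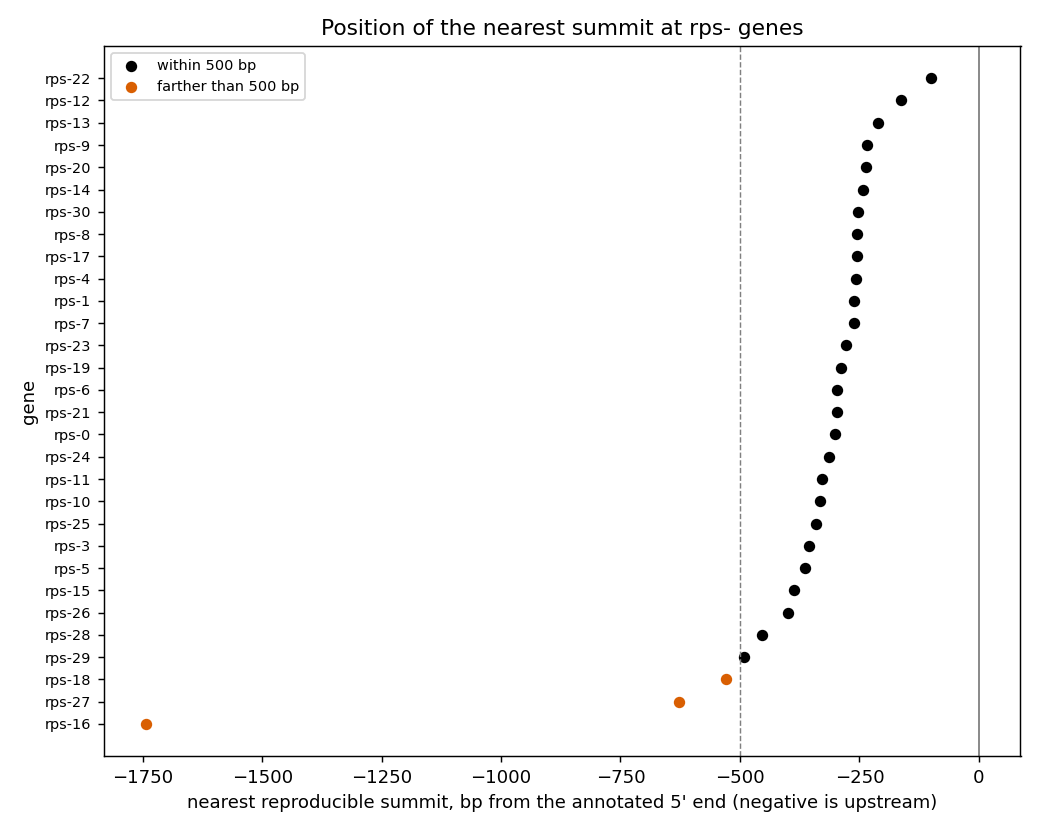
Signed distance in bp (x axis) of the nearest reproducible summit to the annotated 5' end of each rps- gene (y axis), with the 500 bp limit as a broken line. The 27 summits within the limit are all upstream, between -491 and -101 bp, and rps-2, whose nearest summit is at -20697 bp, lies beyond the axis.

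The summits stood farther from the 5' end than the median of other genes. The median was -289 bp for rps- genes (quartiles -336.5 and -254, n = 27) and -297 bp for rpl- genes (n = 38), beside -176 bp for the other 1656 genes with a peak. Between 200 and 400 bp upstream lay 23 of 27 summits of rps- genes (85.2%) and 30 of 38 of rpl- genes (78.9%), beside 592 of 1656 of the other genes (35.7%). That band was chosen after the distances had been seen, so the shares are a description. Nearer than 200 bp were only rps-22, at -101 bp, and rps-12, at -162 bp.

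**Figure D2:**
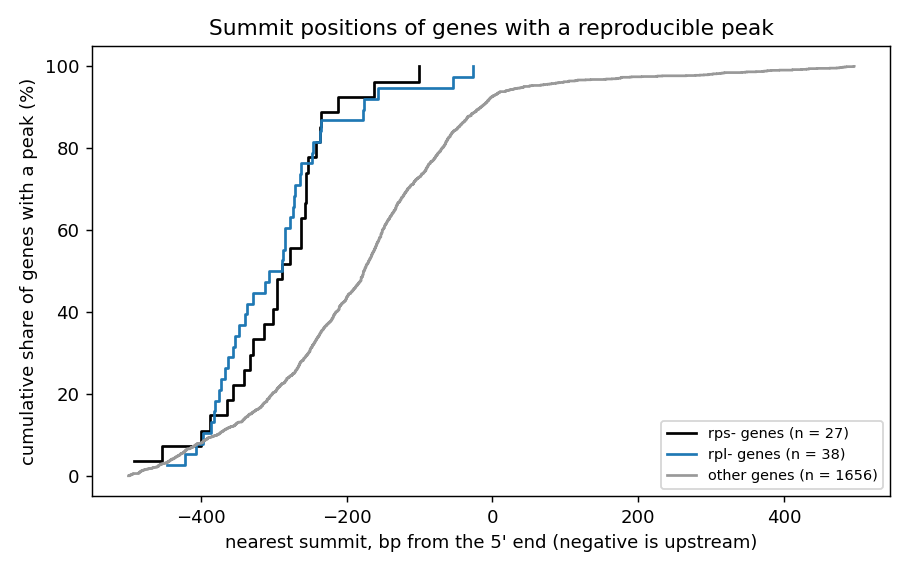
Cumulative share in percent (y axis) of genes whose nearest reproducible summit lies at or before a given signed distance in bp from the 5' end (x axis), for rps- genes, rpl- genes and other genes with a peak. The rps- and rpl- curves run close together and rise mostly between 400 and 200 bp upstream, while the curve of other genes reaches its median at -176 bp.

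Most annotated 5' ends of the members followed the letters of a splice acceptor. The letters AG stood just before the 5' end in 28 of 31 rps- genes (90.3%) and 39 of 47 rpl- genes (83.0%), beside 28.1% of all protein-coding genes and 46.7% of those with a peak. The longer TTTCAG, part of the acceptor consensus in this animal, stood there in 15 of 31 rps- genes (48.4%), beside 12.5% of all genes and 23.5% of those with a peak. Among genes with AG before the 5' end, the median distance was -289 bp for rps- genes (n = 25) and -306 bp for rpl- genes (n = 33), beside -230 bp for all 803 such genes with a peak. Among genes without it, the median was -207 bp for rps- genes (n = 2) and -248 bp for rpl- genes (n = 5), beside -131 bp for all 918. With AG both groups of ribosomal protein genes thus had the more distant medians. Without AG the rps- median stands midway between only 2 genes, rps-22 at -101 bp and rps-24 at -313 bp. The first was nearer than -131 bp and the second farther, so no comparison is drawn for rps- genes in this class. The part of trans-splicing in the members' distances was not tested.

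The strongest of the peaks belonged to rps-12, which encodes a protein of the head of the subunit. Its signal was 497 in the reproducible set, at rank 13 of 2333, from a summit at -162 bp. The call in replicate 1 had a signal of 215 (rank 18) and that in replicate 2 a signal of 274 (rank 11). Signal is the score of the authors' peak caller on an unstated scale of its own in each list, so only ranks compare between lists, and here all 3 put the peak among the first 20 calls.

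The gene rps-28, for a small head protein near the mRNA exit, had a signal of 442 (rank 22), with 188 (rank 29) in replicate 1 and 255 (rank 16) in replicate 2, from a summit at -453 bp. The gene rps-19, whose human counterpart is mutated in Diamond-Blackfan anaemia, had a signal of 439 (rank 23), with 217 (rank 17) in replicate 1 and 221 (rank 29) in replicate 2, at -289 bp. In replicate 2 a weak call of signal 7.18 lay nearer to its 5' end, at +252 bp, and was not the matched one. Weak unmatched calls likewise lay nearer at rps-3 and rps-25 in replicate 2 and at rps-6 in replicate 1. The gene rps-1 had a signal of 385 (rank 35), with 177 (rank 37) in replicate 1 and 210 (rank 34) in replicate 2, at -262 bp. Each of these 4 genes thus ranked within the first 40 calls of every list.

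The next 3 were also within the first 100 ranks. The gene rps-20, for another head protein, had a signal of 349.9 (rank 51) at -236 bp, with 170.2 (rank 46) in replicate 1 and 181 (rank 60) in replicate 2. The gene rps-22 had a signal of 313 (rank 71) at -101 bp, with 145 (rank 73) in replicate 1 and 174 (rank 66) in replicate 2. The gene rps-15, whose protein reaches towards the decoding centre, had a signal of 299.5 (rank 78), with 142 (rank 75) in replicate 1 and 159 (rank 83) in replicate 2, from a summit at -387 bp. These 7 peaks were also the narrow ones, 145 to 191 bp wide, while the other 20 had the usual width of 324 bp. Narrow peaks made up 7 of 27 rps- peaks (25.9%) and 8 of 38 rpl- peaks (21.1%), beside 94 of 1285 peaks of other genes (7.32%). These shares were not compared at like rank, so width is not shown here to be a trait apart from signal.

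Below these came rps-26, whose protein contacts mRNA upstream of the start codon, with a signal of 234 (rank 157) at -399 bp. Its call had 91.4 (rank 230) in replicate 1 and 152 (rank 98) in replicate 2. The gene rps-23, for a protein at the decoding centre, had a signal of 228 (rank 164) at -278 bp, with 104 (rank 179) in replicate 1 and 124 (rank 168) in replicate 2. The gene rps-0 had a signal of 194 (rank 236) at -301 bp, with 80.9 (rank 305) in replicate 1 and 108 (rank 234) in replicate 2. The remaining 17 peaks had signals between 49.3 and 180.2.

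Of these, 4 genes lay close together at ranks 288 to 308. The gene rps-10, for a head protein, had a signal of 180.2 (rank 288) at -332 bp, with 93.4 (rank 220) in replicate 1 and 83.7 (rank 389) in replicate 2. The gene rps-30 had 179 (rank 295) at -253 bp, with 76.1 (rank 343) in replicate 1 and 100.7 (rank 266) in replicate 2. The gene rps-14, for a platform protein, had 177 (rank 306) at -242 bp, with 95.2 (rank 213) in replicate 1 and 86.1 (rank 364) in replicate 2. Replicate 1 thus ranked rps-10 and rps-14 higher, while replicate 2 ranked rps-30 higher. The gene rps-24 had 175 (rank 308) at -313 bp, with 81.1 (rank 300) in replicate 1 and 92.7 (rank 313) in replicate 2.

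A further 3 followed down to rank 478. The gene rps-4 had a signal of 167 (rank 330) at -257 bp, with 66.8 (rank 440) in replicate 1 and 98.2 (rank 277) in replicate 2. The gene rps-13 had 167 (rank 331) at -212 bp, with 66.8 (rank 443) in replicate 1 and 97.6 (rank 283) in replicate 2, so this pair was nearly level in every list. The gene rps-17, for a head protein, had 137 (rank 478) at -256 bp, with 60.9 (rank 519) in replicate 1 and 74.5 (rank 489) in replicate 2.

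The next 7 ranked between 691 and 1132. The gene rps-6, whose protein is the classic substrate of S6 kinase in mammals, had a signal of 111 (rank 691) at -296 bp, with 41.2 (rank 1012) in replicate 1 and 69.6 (rank 559) in replicate 2. The gene rps-29, for a head protein, had 109 (rank 714) at -491 bp, with 27.1 (rank 1948) in replicate 1 and 83.8 (rank 386) in replicate 2. Apart from rps-8, the replicates ranked no other member so differently in proportion. The gene rps-21 had 104 (rank 778) at -296 bp, with 43.002 (rank 944) in replicate 1 and 60.6 (rank 720) in replicate 2. The gene rps-3 had 99.5 (rank 828) at -356 bp, with 47.4 (rank 802) in replicate 1 and 54.3 (rank 859) in replicate 2.

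In the last 3 of these replicate 2 gave the better rank. The gene rps-11 had a signal of 92.6 (rank 935) at -328 bp, with 38.0 (rank 1165) in replicate 1 and 54.0 (rank 868) in replicate 2. The gene rps-9 had 88.2 (rank 993) at -235 bp, with 32.1 (rank 1509) in replicate 1 and 52.9 (rank 904) in replicate 2. The gene rps-25, for a head protein, had 80.9 (rank 1132) at -341 bp, with 26.3 (rank 2054) in replicate 1 and 52.3 (rank 920) in replicate 2.

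**Figure D3:**
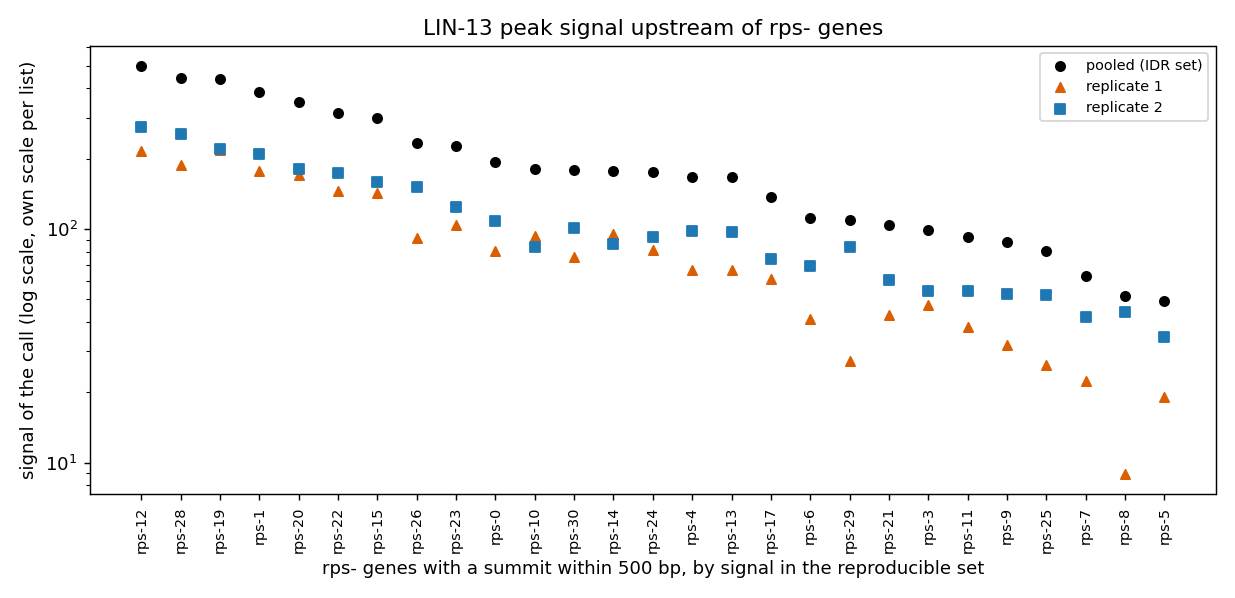
Signal of the call (y axis, log scale, own scale per list) at each of the 27 rps- genes with a reproducible peak (x axis, by falling signal), in the pooled data and in each replicate. Signals fall from 497 at rps-12 to 49.3 at rps-5 with replicate 1 lowest for most genes, and the call of rps-8 in replicate 1 stands apart at 8.97.

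Over all 27 peaks the median signal in the reproducible set was 175 for rps- genes and 149 for rpl- genes, beside 85.3 for all genes with a peak. At the median rps- peak, 15.5% of the 1346 promoter peaks had a higher signal (quartiles 6.20% and 40.1%), and at the median rpl- peak 19.7% did. Of the rps- peaks, 7 were within the first 100 ranks, 10 between there and rank 500, and 10 beyond it. The highest 3 of the ribosomal protein genes were rpl- genes, namely rpl-3 (802, rank 3), rpl-35 (663, rank 4) and rpl-15 (624, rank 5).

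The weak end was less even between the replicates. The gene rps-5, for a head protein, had a signal of 49.3 (rank 2272) at -364 bp, with 19.1 (rank 3860) in replicate 1 and 34.4 (rank 1698) in replicate 2. The gene rps-8 had a signal of 51.5 (rank 2142) at -255 bp, with 8.97 (rank 28461) in replicate 1 and 43.9 (rank 1175) in replicate 2. In replicate 1 a stronger unmatched call of signal 17.1 (rank 5130) lay nearer to the 5' end of rps-8, at +114 bp. The gene rps-7 had a signal of 62.8 (rank 1660) at -262 bp, with 22.4 (rank 2750) in replicate 1 and 42.2 (rank 1255) in replicate 2. These 3 were the members whose call in replicate 1 was beyond the 2333 strongest, and in replicate 2 all 27 were within them.

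A call within 100 bp of the summit was found in both replicates for 27 of 27 rps- peaks, beside 95.8% of promoter peaks. The calls lay close to the summit, at a median of 7 bp in replicate 1 and 9 bp in replicate 2. The q-value of the call was under 0.05 for 24 of 27 in replicate 1, beside 85.1% of promoter peaks, and for 27 of 27 in replicate 2, beside 96.4%. Of the 30000 calls of each replicate, 2475 in replicate 1 and 5192 in replicate 2 were under that value. Replicate 2 gave the better rank at 20 rps- genes and replicate 1 at 7, beside 50.2% of matched promoter peaks with the better rank in replicate 2. With 2 replicates this difference has no test.

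**Figure D4:**
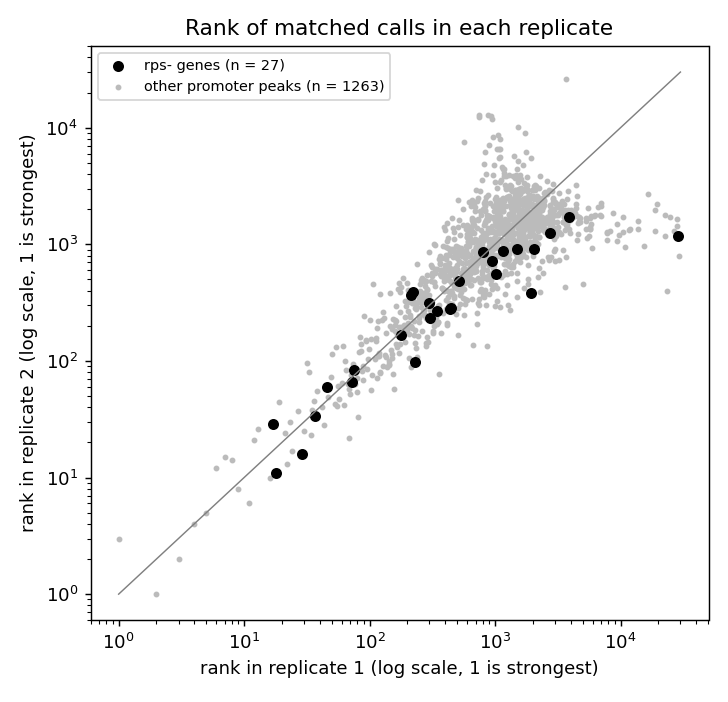
Rank of the matched call in replicate 1 (x axis) and replicate 2 (y axis), both on log scales with 1 as the strongest, for 27 rps- peaks and 1263 other promoter peaks, with a line of equal rank. Most rps- points lie below the line, and rps-8 lies far to the right at rank 28461 in replicate 1.

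The other 4 members had no reproducible summit within 500 bp. The gene rps-18, for a head protein, had one at -530 bp with a signal of 92.1 (rank 940), inside an exon of sec-61.A, a gene for a subunit of the protein translocation channel. Its calls were at -534 bp in replicate 1 (signal 47.6, rank 794) and at -502 bp in replicate 2 (signal 44.9, rank 1137). The gene rps-27 had its nearest summit at -628 bp, with a signal of 83.4 (rank 1084), and that summit was at -120 bp from the opposite-strand gene picd-1. The call there had a signal of 30.6 (rank 1635) in replicate 1 and 54.3 (rank 860) in replicate 2. Nearer to rps-27 were only weak calls, such as a pooled one at -175 bp with a signal of 16.2 (rank 20972).

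The gene rps-16, for a head protein, had its nearest summit at -1744 bp, with a signal of 183 (rank 281), and with 87.0 (rank 256) in replicate 1 and 95.6 (rank 292) in replicate 2. That summit lay at -62 bp from fib-1, which encodes fibrillarin, the methyltransferase of box C/D small nucleolar RNPs. The gene fib-1 is on the same strand and is the only gene between the summit and rps-16, with a gap of 110 bp between the pair, and mut-15 starts on the other side of the summit. The gene rps-2 had its nearest one at -20697 bp, with a signal of 124 (rank 569), and with 55.9 (rank 588) in replicate 1 and 68.4 (rank 580) in replicate 2. Its closest pooled call, at -253 bp, had a signal of 18.1 (rank 15957). Calls of that strength were common, since the median signal of the pooled list was 18.6.

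Many of the peaks lay between a pair of genes that start in opposite directions. For 16 of 27 rps- summits (59.3%) a gene on the other strand also had a 5' end within 500 bp, beside 390 of 1346 promoter peaks. At 12 of the 16 the summit was nearer to the 5' end of that other gene than to that of the rps- gene, and at 4 it was not. No like share is given here for the other promoter peaks, so the count is a description. Of the 16, 3 shared their summit with a gene of the large subunit, namely rps-10 with rpl-24.1, rps-14 with rpl-36 and rps-30 with rpl-39. For these summits the lists cannot show which of the genes, if either, the protein acts on.

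The other partners had varied functions. The summit of rps-12 lay at -131 bp from ska-3, that of rps-19 at -156 bp from hsr-9 and that of rps-20 at -161 bp from ekl-4. The remaining partners were rbg-3 (rps-0), sna-3 (rps-3), usp-3 (rps-6), lsm-1 (rps-9), nfx-1 (rps-13), F36A2.9 (rps-15), polh-1 (rps-22), dpm-3 (rps-23), tmem-107 (rps-26) and snt-2 (rps-29). The summits closest to a partner were at -58 bp from tmem-107, -72 bp from rbg-3 and -76 bp from snt-2. From their rps- genes these summits lay at -399, -301 and -491 bp in that order. Genes for small RNAs (tRNA, snoRNA or snRNA) lay within 250 bp of 2 of 27 rps- summits, beside 8.53% of all 2333 peaks. Both were snoRNA genes, at 242 bp for rps-12 and 119 bp for rps-26.

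Genes with a peak were found in every structural class. Proteins with a bacterial counterpart had a peak at 12 of 15 genes and those found in eukaryotes and archaea, or eukaryotes alone, at 15 of 16. Head proteins had one at 11 of 13 genes and proteins of the body and platform at 16 of 18. Of all protein-coding genes 8.62% had one. Narrow, strong peaks were at 5 of the 11 head genes with a peak and at 2 of the 16 body genes, beside narrow peaks at 7.50% of promoter peaks. These counts are small, and a difference between head and body was not tested.

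Parts of the small subunit outside the rps- names, and genes listed for ribosome production in general, were mixed. The gene ubl-1, for a ubiquitin-like protein fused to a small-subunit protein, had a summit at -182 bp with a signal of 207 (rank 209), and rack-1, for a scaffold protein on the head, had none within 500 bp. Of the genes listed as ribosome assembly factors, 13 of the 26 that matched a gene name had a peak within 500 bp. Of the RNA polymerase I genes 1 of 4 did, and of the genes that control ribosome production 4 of 11 did, where 8.62% of all protein-coding genes had a peak. These lists are small and were drawn up with earlier results of these data known.

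A set of known motifs was also looked for at the summits. In windows reaching 100 bp to each side of the summit, on either strand, E2F-like words (TTCCCGCC, TTTCCCGC, TTCGCGCC, TTGGCGCC or TTCCCGCG) were at 2 of 27 rps- summits (7.41%), beside 7.73% of promoter peaks. The CHR, an element bound by MuvB complexes (TTTGAA or TTCGAA), was at 11 (40.7%), beside 51.7%. The GC-box CCGCCC was at 3 (11.1%), beside 9.66%, and the T-tract TTTTTTTT at 5 (18.5%), beside 16.7%. The E-box CACGTG was at 1 (3.70%), beside 6.17%, and GAGAGA at 8 (29.6%), beside 32.3%. These comparisons depend on the window. With 50 bp to each side the CHR was at 7.41% of rps- summits, beside 28.5% of promoter peaks, and with 150 bp the T-tract was at 40.7%, beside 26.7%. A missing match says only that these letters are not in the window.

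Words A to F were picked from the members' own windows and are a description of them. All words of 6, 7, 8, 10 and 12 letters in these 27 windows were listed, 3845 distinct ones at 8 letters, of which 254 stood in 3 or more windows and in under 15% of promoter windows. From these lists 6 were picked by eye, so their being common at rps- genes is how they were chosen. The counts in rpl- windows were printed in the same lists and were in view during the picking.

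Word A was in 9 of 27 rps- windows and 14 of 38 rpl- windows, beside 6.98% of promoter windows. Word B was in 6 of 27 and 10 of 38, beside 2.15%, and word C in 7 of 27 and 9 of 38, beside 5.27%. Word D was in 5 of 27, always on the strand of the gene, and in 5 of 38, beside 1.11%. AAACGAGT (word E) was in 6 of 27 and 8 of 38, beside 2.75%. Word F was in 6 of 27 rps- windows but in only 2 of 38 rpl- windows, beside 1.34% of promoter windows, so it was the least shared between the subunits of the 6. The windows of rps-10, rps-14 and rps-30 lie at summits shared with rpl- genes and stand in both sets. The rpl- counts are therefore not independent of the windows the words were picked from.

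At least 1 of words A to F was in 24 of 27 rps- windows and 30 of 38 rpl- windows, beside 202 of 1346 promoter windows. At least 2 were in 12 of 27 and 12 of 38, beside 3.79%. The 3 windows with none belonged to rps-1, rps-12 and rps-15, all among the 7 strongest peaks. In a separate search, words of 6 to 8 letters were listed in the 100 strongest promoter windows, and 6 of them were looked up at the rps- summits. The one kept as word G, CGCTCCA, was in 3 of 27 rps- windows (11.1%), beside 10.4% of promoter windows. Its matches were at rps-1, rps-15 and rps-22, all among the 7 strongest rps- peaks. The windows of these 3 peaks were themselves among the 100 that were searched. That the matches fall at strong peaks therefore describes how the word was chosen. The other 5 words were in 7.41% to 14.8% of rps- windows, beside 7.88% to 22.1% of promoter windows. These shares lie near or below those of promoter windows.

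The windows the words were picked from reach only 100 bp from the summit, which bounds how far from it a match can lie. Word A had its centre within 50 bp of the summit at all 9 matches, at a median of -3.5 bp along the gene. Words C, D and F were within 50 bp at all of their matches as well, with medians of -23.5 bp for word C, 25.5 bp for word D and 4.5 bp for word F. Word B lay on the side of the 5' end, 35.5 to 81.5 bp from the summit, with 4 of 6 matches within 50 bp. Word E lay between -85.5 and 35.5 bp, with 5 of 6 matches within 50 bp. No factor is assigned to any of these words here.

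**Figure D5:**
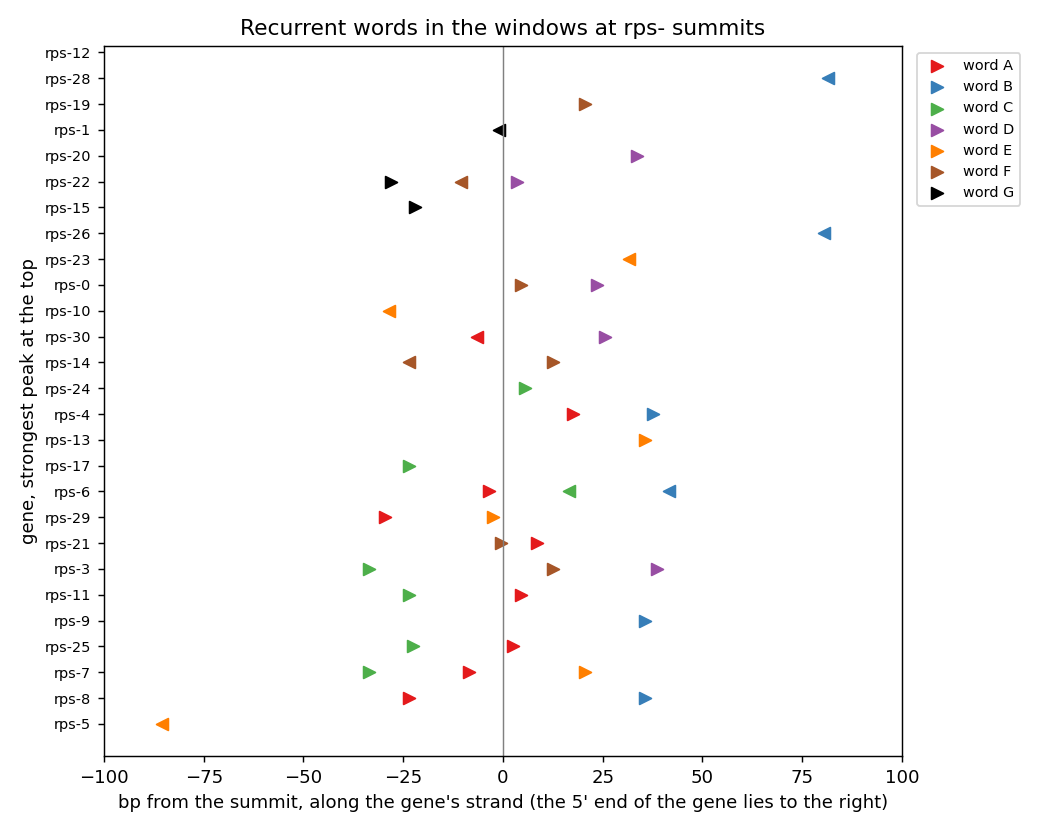
Centre of each match of words A to G in bp from the summit (x axis, along the strand of the gene) for the 27 rps- genes with a peak (y axis, strongest at the top), with arrowheads for the strand. Matches of words A, C, D and F lie within 50 bp of the summit, and rps-12 has no match.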

How the data were processed

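The deposited files are peak lists of 2 biological replicates. Per the deposited file descriptions, the authors called each replicate and the pooled alignments against a control, 30000 calls per list with background kept, and derived the IDR set of 2333 peaks from these lists. The deposited signal is the caller's score on an unstated scale. The deposited −log10 q-value was used only at 0.05. The deposited summit offsets (other values) gave the positions. No source used here gives the aligner, caller, IDR threshold or depth. The ce10 lists were not used.

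The annotation was Ensembl release 115 of WBcel235, the assembly behind ce11, with 29314 coding 5' ends. Sequence was RefSeq's. Names beginning with rps- chose the members. The rule for named genes asks for full values of the 10 strongest members, those without a peak and those in a role group, which together are all members. Genes with any 5' end no farther than 500 bp from a summit counted as having a peak. Promoter peaks are IDR peaks within 500 bp of a protein-coding 5' end. Replicate calls were matched within 100 bp. With 1 group no test between samples exists. Members, lists and words were chosen with earlier results of these data known. Of the 39 assembly factor names 26 matched a gene. The summit search was tested on simulated data. Python 3.11.15, numpy 2.4.6, pandas 2.3.3, scipy 1.17.1 and matplotlib 3.10.9 were used.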

Additional observations from a re-analysis of the deposited data

How the results depend on the processing

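No paired analysis was possible because the labels give 1 group only. The count of 27 rps- genes with a summit became 6 with a window of 250 bp and 15 when a summit counted only for its nearest 5' end. It lay between 24 and 29 in the other settings, and between 24 and 27 with 1 replicate alone. It was 25 without summits within 250 bp of small RNA genes. The median share of stronger promoter peaks, 15.5%, became 9.22% at 250 bp, 16.1% with the 5'-most end of each gene, 24.1% with nearest 5' ends only and 27.4% within the stronger part of the IDR set, where only strong peaks are ranked. With 1 replicate alone it was 15.5% to 15.9%. The median distance, -289 bp, became -223.5 bp at 250 bp, -296 bp at 1000 bp and -262 bp with nearest 5' ends only, and was -290 to -283 bp with 1 replicate alone. In windows reaching 50 bp to each side the share of rps- summits with an E2F-like word was 0%, with the CHR 7.41% and with the T-tract 0%, beside 4.75%, 28.5% and 4.61% of promoter peaks in that order. With 150 bp to each side it was 63.0% for the CHR and 40.7% for the T-tract, beside 67.4% and 26.7% of promoter peaks. The window fixes how many letters are searched. Depth is unknown, so weak calls such as that of rps-8 in replicate 1 have no interval.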
